A study of Rattus norvegicus with 71 samples.

Results

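Gene expression in mesenteric artery of Brown Norway (BN) rats was compared between 15 and 6 months of age. The comparison used 12 of the 71 arrays of the series, chosen by strain, vessel and age in the labels: 6 from rats of 6 months and 6 from rats of 15 months. The study also measured the thoracic artery (the aorta of its title), Fischer344 x Brown Norway (FBN) hybrid rats and an age of 24 months. Further groups were used beside the BN arrays, namely FBN mesenteric artery at 6 and at 15 months (6 arrays each) and BN aorta at 6 (6 arrays) and at 15 months (5 arrays). No allele or drug is given for any group. The labels name, for all samples alike, a collateral artery model made by occluding a neighbouring artery, and do not say which vessels came from it. They do not say whether each array is a separate animal, so the p-values measure the spread between arrays.

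Mesenteric arteries are small muscular vessels that supply the gut and set part of the resistance to blood flow. Their wall has a layer of endothelium, a media of smooth muscle and an adventitia of fibroblasts, nerves and immune cells, and it lies in fat. Ageing arteries are known for changes in matrix, smooth muscle tone and inflammation, and vessel wall cells also run a circadian clock in which transcription factors switch each other on and off through the day. In whole vessel RNA, fewer cells of a type and less RNA per cell cannot be told apart.

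The wall's own markers were bright at both ages. The smooth muscle gene Acta2 had signals of 21860 (lowest), 30750 (median) and 35460 (highest) at 6 months and of 29990, 32630 and 49100 at 15 months. The endothelial gene Pecam1, with a median of 5854 at 6 and 8286 at 15 months, and the fibroblast gene Dcn, with 37220 and 34480, were bright too. The fat cell gene Adipoq was also bright, with a median of 18630 at 6 and 17610 at 15 months, so the RNA held a fat cell component. The T cell gene Cd2, the neutrophil genes S100a8 and S100a9, the pancreas genes Prss1 and Cpa1 and the noradrenaline synthesis genes Th and Dbh stayed below a signal of 292.4, the mean that a probe set had to reach over the mesenteric or the aorta arrays to be tested. Other markers of T cells and sympathetic neurons did reach the filter. Cd3g had medians of 376.8 at 6 and 272 at 15 months, and Prph had 602.9 and 949.2. On 24 probe sets that separate the strains in aorta, all BN arrays of 6 and 15 months lay on the BN side. All 6 of the 24-month mesenteric arrays labelled BN and all 6 labelled FBN lay on the side of the other strain, and no 24-month level is compared with age here.

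Several array measures differed between the ages before any gene of the rat was considered. The hybridisation spike-ins, bacterial and phage RNAs added to every labelled sample, had a mean log2 signal of 12.44 ± 0.18 at 6 months and of 13.07 ± 0.11 at 15 months (SD, n = 6 each). Every 15-month array lay above every 6-month array, and the exact permutation test gave p = 0.00433 after adjustment over 6 tests. The poly-A spike-ins, RNAs added before labelling, had 8.79 ± 0.62 and 9.84 ± 0.58 (adjusted exact p = 0.00649).

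Of the 9 spike-ins taken singly, 8 were higher at 15 months after adjustment. The exception was Trp, the dimmest, with a difference of 0.07 in log2 (adjusted exact p = 0.903). The log2 ratio of the 3′ to the 5′ probe set of Gapdh, which is larger when the transcript's start is less well represented, was 0.59 ± 0.22 at 6 months and 1.00 ± 0.10 at 15 months without overlap (adjusted exact p = 0.00433). The ratio of Actb was 1.65 ± 0.37 and 2.23 ± 0.27 (adjusted exact p = 0.0104). The tissue pieces weighed 6.6 to 11.0 mg at 6 months and 12.1 to 18.5 mg at 15 months (adjusted exact p = 0.00433). Age, tissue mass, hybridisation signal and Gapdh ratio therefore cannot be told apart in these arrays.

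**Figure D1:**
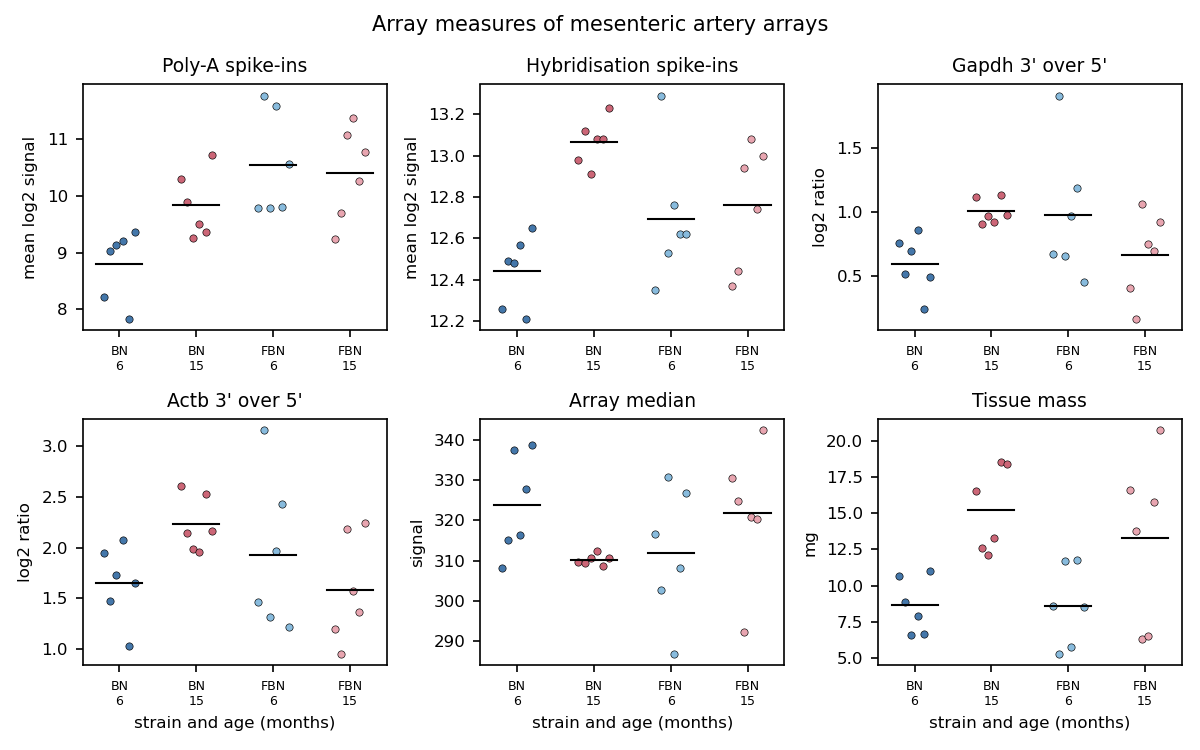
Array measures of the mesenteric arrays by strain and age (x axis), each point an array and each bar the group mean of 6 arrays; the y axes give mean log2 signal, log2 ratio, signal or mass in mg. The BN hybridisation spike-ins (12.44 at 6 and 13.07 at 15 months), Gapdh ratio and mass do not overlap between ages, while the FBN arrays overlap in all 6 measures.

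The same measures moved less or otherwise in the other groups. In FBN mesenteric artery the hybridisation spike-ins had means of 12.7 at 6 and 12.76 at 15 months, the poly-A spike-ins 10.55 and 10.41, and the Gapdh ratio 0.97 and 0.66. In BN aorta the hybridisation spike-ins had 12.8 and 13.22, the poly-A spike-ins 8.39 and 9.02, and the Gapdh ratio 0.52 and 0.50. Both kinds of spike-in were thus higher at 15 months in BN aorta too, where the Gapdh ratio was nearly level.

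Between 6 and 15 months 287 probe sets rose and 296 fell in BN mesenteric artery, 583 of 16717 tested (3.49%; 1.72% higher and 1.77% lower), by limma's moderated test at an adjusted p of 0.05. The rises covered 200 genes and the falls 240, counting probe sets with 1 symbol. Most changes were small. The median was 0.44 for the rises and -0.52 for the falls on the log2 scale, 302 of the 583 were under 0.5, and 8 rose and 12 fell by 1 or more. The 15-month arrays lay wholly above the 6-month arrays in 202 of the rises and wholly below them in 172 of the falls. Over all tested probe sets they were apart in 4.91%, above in 2.54% and below in 2.37%. The median over all tested probe sets was -0.02. With each array's median aligned in place of its trimmed mean, 411 rose and 137 fell, so the balance of rises and falls depended on the scaling.

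**Figure D2:**
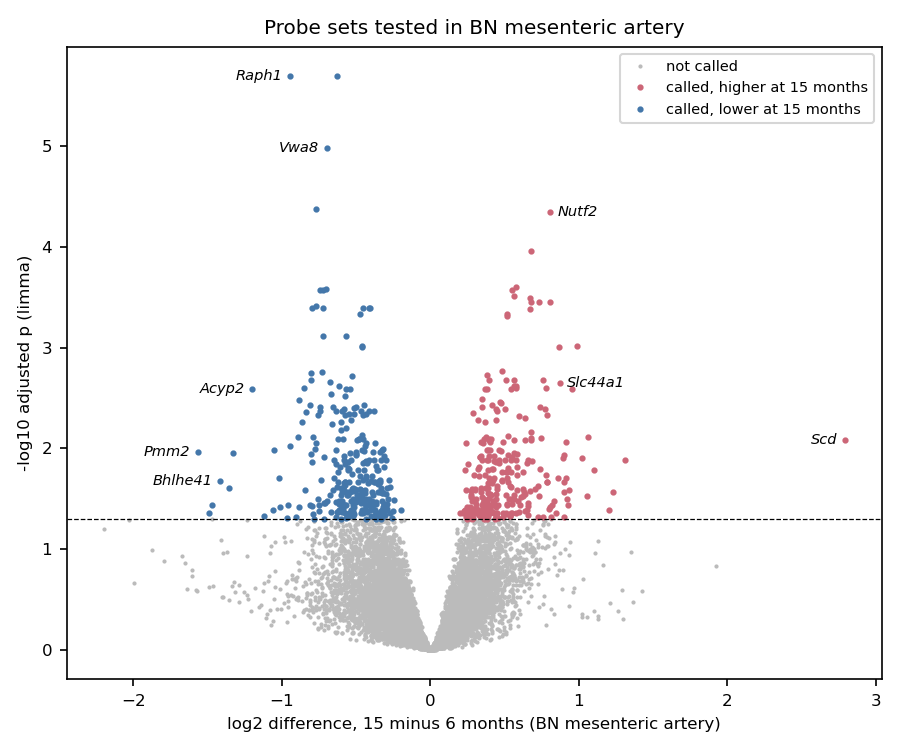
Each point is 1 of the 16717 tested probe sets, with its log2 difference between 15 and 6 months in BN mesenteric artery (x axis) and the -log10 of its limma adjusted p (y axis; dashed line, 0.05). Of these, 287 probe sets are called higher (red) and 296 lower (blue), with Scd alone beyond 2 log2 units among them and Raph1 at the top.

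Genes of fatty acid synthesis held the largest rise. Scd, the desaturase that makes monounsaturated fatty acids, had signals of 169.2, 348.2 and 748.5 (lowest, median, highest) at 6 months and of 843.5, 3186 and 7443 at 15 months. All 6 older arrays lay above all 6 younger ones. The log2 rise was 2.79 ± 0.61 (SE), 6.91-fold (limma adjusted p = 0.00816). Acaca, the carboxylase of the committed step, had 2129, 2913 and 4199 at 6 months and 3915, 4987 and 7595 at 15 months. Its groups overlapped at their edges, and it rose by 0.79 ± 0.16 (limma adjusted p = 0.00469), while its other tested probe set stood at -0.12. Fasn, the synthase itself, had medians of 8993 and 14450 and did not pass (0.64 ± 0.24, limma adjusted p = 0.124). Of the 16 tested genes of the pathway 2 rose and 0 fell (12.5%, against 3.49% of all probe sets), with a median of 0.06 over the list. The 20 tested genes of fatty acid oxidation held 0 rises and 2 falls (10%, against 3.49% of all probe sets), with a median of -0.27. Cpt1a, which admits fatty acids to mitochondria, fell by 0.46 ± 0.13 (limma adjusted p = 0.0345), and Acaa2, the thiolase of the last step, by 0.49 ± 0.12 (limma adjusted p = 0.0165).

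Fat cell markers were measured beside these genes because the vessels carried fat. None of the 13 tested white adipocyte markers and none of the 11 brown adipocyte markers passed limma's test. Of the 24, 3 had an unadjusted p under 0.05, against 19.8% of all tested probe sets. The summed signal of the 14 white markers on the array ranged from 186892 to 214058 at 6 months and from 135082 to 209583 at 15 months, with Lep below the filter and Adipoq and Plin1 bright. The median difference of the 13 tested white markers was -0.19, and 1 of the 13 stood above 0. Lep, which was not tested, had dim medians of 135.7 at 6 and 23.8 at 15 months. The part of fat cells in the lipid gene values was not tested.

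Other metabolic genes changed in small numbers. Of 16 glycolysis genes 3 rose and 0 fell (18.8%, against 3.49% of all probe sets). Ldha, a subunit of lactate dehydrogenase, had signals of 11630 to 13740 at 6 months and of 14000 to 16990 at 15 months without overlap, a rise of 0.32 ± 0.07 (limma adjusted p = 0.00521). Aldoc, an aldolase, rose by 0.86 (limma adjusted p = 0.0195) and Pfkm, the muscle phosphofructokinase, by 0.38 (limma adjusted p = 0.0456). Prodh, the first enzyme of proline breakdown, had 642.7, 1207 and 2189 at 6 months and 2191, 2517 and 4380 at 15 months. The groups touched without overlapping, and Prodh rose by 1.23 ± 0.32 (limma adjusted p = 0.0273). Slc44a1, a choline transporter, had 2079, 2203 and 2727 at 6 months and 3220, 4201 and 4751 at 15 months, a rise of 0.87 ± 0.16 (limma adjusted p = 0.00224). Its other tested probe sets stood at 0.37 each and did not pass. In oxidative phosphorylation 1 of 56 genes rose (1.79%, against 3.49% of all probe sets), Uqcrc1 of complex III, by 0.31. None of 17 cholesterol synthesis genes passed limma's test, with 1 at an unadjusted p under 0.05.

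Chl1, a neural cell adhesion molecule, was another of the 12 largest rises. It had 778.2, 1535 and 1814 at 6 months and 1991, 3281 and 3778 at 15 months. Its groups did not overlap, and it rose by 1.10 ± 0.27 (limma adjusted p = 0.0165). Nrn1, which encodes neuritin, a protein that promotes neurite growth, rose by 0.90, and Ank3, whose ankyrin anchors membrane proteins to the spectrin skeleton, by 1.06. Of the 10 tested Schwann cell and nerve genes 2 rose (20%, against 3.49% of all probe sets). These were Pmp22 of myelin, by 0.42, and the adhesion molecule Ncam1, by 0.85. Of 3 tested sympathetic neuron genes 1 rose (33.3%), Prph, a neuronal intermediate filament, by 0.74, and the lowest stood at -0.41. The glial factor Sox10 stood at 0.46 (limma adjusted p = 0.361) and Egr2, of the same list, at -0.93 (limma adjusted p = 0.1985). The nerve list's median was 0.30, with 7 of the 10 above 0. The summed signal of 11 Schwann and nerve markers ranged from 53466 to 63266 at 6 months and from 61982 to 80771 at 15 months, and their part in these rises was not tested.

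Kdm6b, which removes methyl groups from lysine 27 of histone H3, was among the 12 largest rises too. It had 1787, 2073 and 2348 at 6 months and 2624, 4117 and 4990 at 15 months. It did not overlap between ages and rose by 0.89 ± 0.21 (limma adjusted p = 0.0124). H1f10, a linker histone, rose by 0.92 (limma adjusted p = 0.0197) and Meg3, an imprinted long noncoding RNA, by 0.90 (limma adjusted p = 0.0268), both without overlap. The remaining large rises were Wfdc21 (1.31), Rsbn1 (1.02) and Fryl (0.96). Brighter tested probe sets of Rsbn1 and Fryl stood at -0.07 and 0.145 and did not pass.

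**Figure D3:**
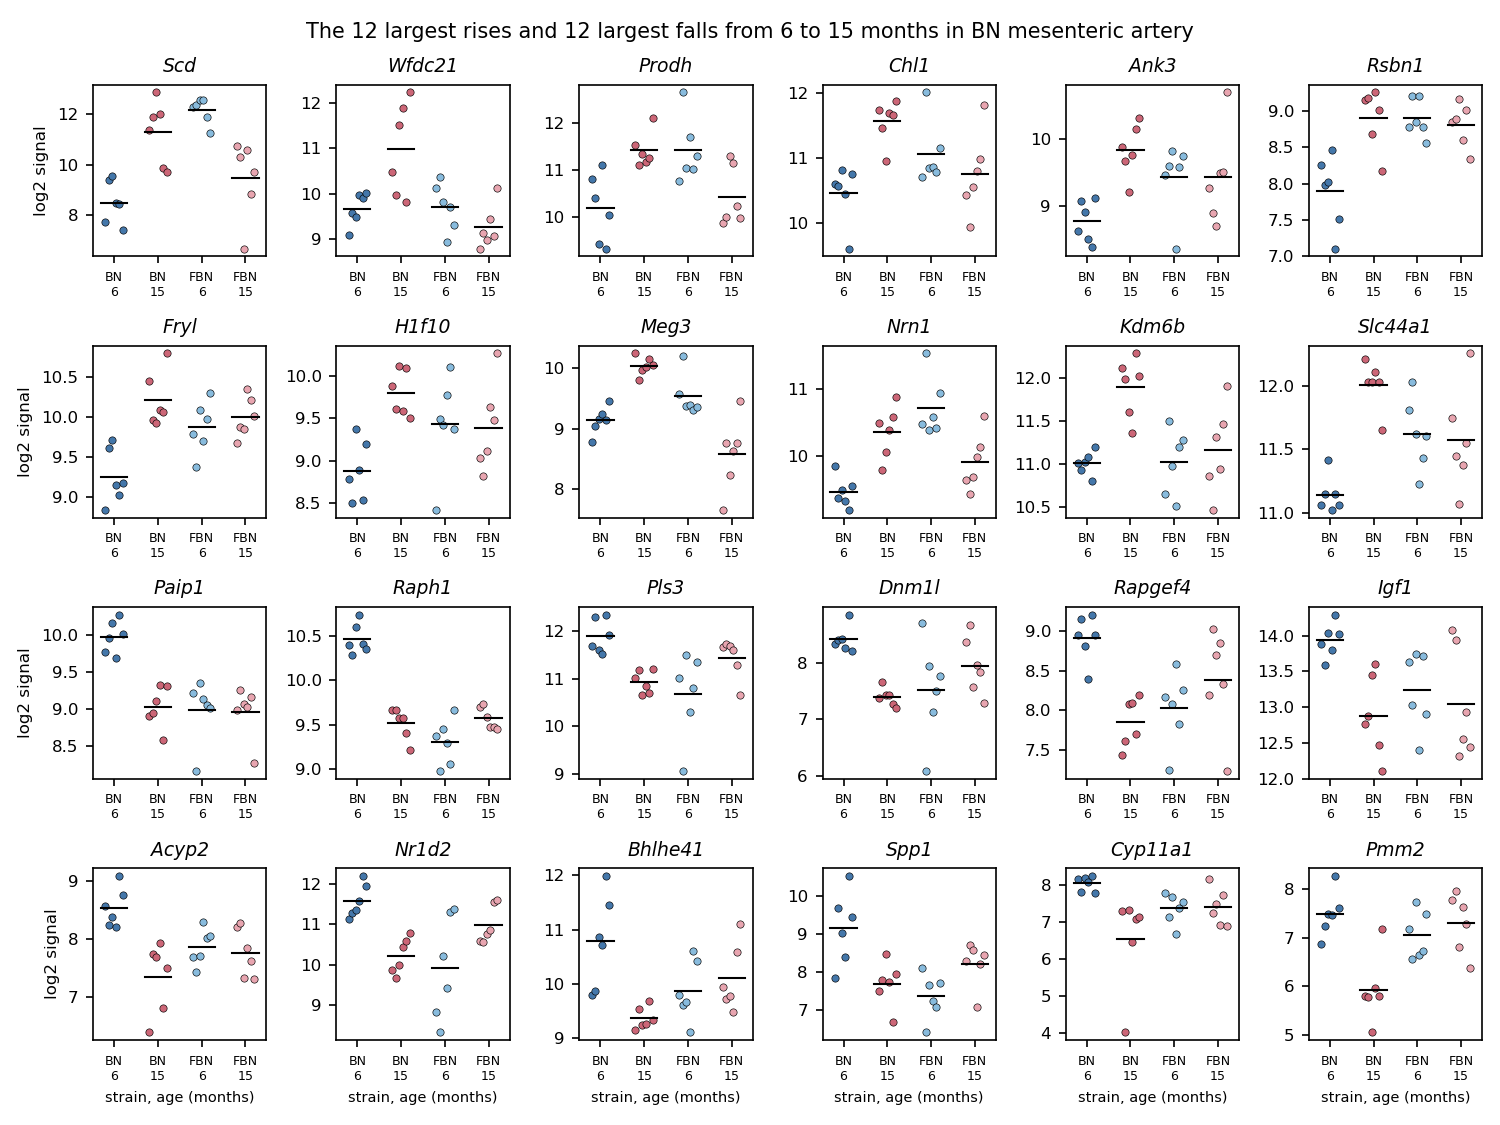
Log2 signal by array (y axes) of the 12 genes with the largest rise and the 12 with the largest fall in BN mesenteric artery, for BN and FBN at 6 and 15 months (x axes); points are arrays and bars group means of 6. Scd separates the BN ages by 2.79 log2 units and moves the other way in FBN, while Raph1 is highest in BN at 6 months.

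The large falls included parts of the circadian clock. Bhlhe41, a repressor of clock transcription that is itself under clock control, had 886, 1776 and 4065 at 6 months and 564.3, 627.7 and 820.4 at 15 months. All older arrays lay below all younger ones, and the younger arrays spread over a wider range. The log2 fall was 1.42 ± 0.35, with signals 2.67-fold higher at 6 months (limma adjusted p = 0.0209). Nr1d2, which encodes the nuclear receptor REV-ERB beta, had 2241, 2836 and 4712 at 6 months and 821.2, 1202 and 1773 at 15 months. It fell by 1.35 ± 0.35 (limma adjusted p = 0.0246), without overlap, and its brighter probe set stood at -0.89 (limma adjusted p = 0.162).

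The other clock genes did not pass, and the values of some of them are given. Dbp, an output factor that binds D-boxes, had 555.1, 1852 and 3565 at 6 months and 158.3, 316.9 and 694.6 at 15 months, a difference of -2.20 ± 0.68 (limma adjusted p = 0.0625). Nr1d1 stood at -1.65 (limma adjusted p = 0.137), Per3 at -0.97 (limma adjusted p = 0.206), Tef at -0.76 (limma adjusted p = 0.0688) and Per2 at -0.64 (limma adjusted p = 0.229). By the brightest probe set, 8 of the 19 tested clock genes stood above 0. Among them were Nfil3 (1.11, limma adjusted p = 0.108), which acts against Dbp and Tef, and Npas2 (0.93, limma adjusted p = 0.114). Cry1 (0.60, limma adjusted p = 0.401) and Bmal1 (0.58, limma adjusted p = 0.299) were others. With each gene taken by its brightest probe set, 1 of 19 clock genes passed (5.26%, near the 3.49% of all probe sets), and the list's median was -0.04. The hour at which vessels were taken is not given in the labels, and its part in these values was not tested.

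In FBN mesenteric artery the clock genes stood the other way. Nr1d2 was at 1.07, Nr1d1 at 1.44, Dbp at 0.80 and Bhlhe41 at 0.24, none passing limma's test. The strain difference of the change passed for Nr1d2 (-2.43 ± 0.49, limma adjusted p = 0.00968). It did not for Dbp (-3.00 ± 0.97, limma adjusted p = 0.0789) or Bhlhe41 (-1.65 ± 0.50, limma adjusted p = 0.0659).

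The promoters of the 2 clock genes that fell are shown because clock factors act on them through short motifs, the E-box CACGTG bound by the activators CLOCK and BMAL1, and the D-box TTATGTAA. The windows run from 250 bases before to 50 bases after each gene's start in RefSeq's annotation of build GRCr8, 5′ to 3′ on the gene's strand, with E-boxes in capitals. That of Bhlhe41 lies at chr4:180569306-180569605 on the minus strand and that of Nr1d2 at chr15:9954784-9955083 on the plus strand.
Bhlhe41: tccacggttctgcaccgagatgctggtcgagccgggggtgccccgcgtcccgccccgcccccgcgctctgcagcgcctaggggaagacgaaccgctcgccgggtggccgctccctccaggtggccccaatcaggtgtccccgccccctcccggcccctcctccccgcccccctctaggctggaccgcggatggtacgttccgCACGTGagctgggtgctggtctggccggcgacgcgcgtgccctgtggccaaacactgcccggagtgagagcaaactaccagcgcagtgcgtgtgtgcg
Nr1d2: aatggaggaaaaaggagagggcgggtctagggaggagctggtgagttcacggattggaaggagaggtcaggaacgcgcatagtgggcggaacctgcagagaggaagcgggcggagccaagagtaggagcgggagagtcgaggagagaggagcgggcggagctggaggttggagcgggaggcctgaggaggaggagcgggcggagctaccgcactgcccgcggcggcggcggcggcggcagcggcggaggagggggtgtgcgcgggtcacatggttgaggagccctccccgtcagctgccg
The Bhlhe41 window held 1 E-box and the Nr1d2 window none, and neither held a D-box as spelled here. Searched on both strands, 6.42% of 33469 promoter windows of this length held the E-box and 0.893% the D-box.

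A few secreted growth factors fell. Igf1, a growth factor made by many stromal cells, had 12340, 15880 and 20110 at 6 months and 4407, 7259 and 12440 at 15 months. A single older array reached into the younger range, and the log2 fall was 1.06 ± 0.30 (limma adjusted p = 0.0411), with 2 further probe sets at -0.59 and -0.71. Vegfb, a relative of the main endothelial growth factor, fell by 0.72 ± 0.17 (limma adjusted p = 0.0121) and Angptl2, an angiopoietin-like protein, by 0.69 ± 0.19 (limma adjusted p = 0.0331). Of 21 tested growth factors and receptors 0 rose and these 3 fell (14.3%, against 3.49% of all probe sets), with a list median of -0.03. Tgfb1, the cytokine that drives matrix production in many tissues, fell by 0.52 ± 0.14 (limma adjusted p = 0.032). It was the only one of 23 tested TGF-beta and BMP genes to pass (4.35%, near the 3.49% of all probe sets). Dkk3, of the Dickkopf family of secreted Wnt regulators, fell by 0.59 (limma adjusted p = 0.0333). It was 1 of 20 tested Wnt and Notch genes (5%, near the 3.49% of all probe sets).

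Spp1, the matricellular protein osteopontin, had 231.2, 615.9 and 1485 at 6 months and 103.6, 216.9 and 360.1 at 15 months. The groups overlapped, with 4 of 6 older arrays below all younger ones, and Spp1 fell by 1.47 ± 0.40 (limma adjusted p = 0.0363). Sparc, a collagen-binding matricellular protein, went the other way, with 13070 to 19000 at 6 months and 21380 to 30350 at 15 months and no overlap (0.58 ± 0.11, limma adjusted p = 0.0025). Fkbp10, a collagen chaperone, fell by 0.47. Of 19 tested collagen biosynthesis genes, Sparc among them, 1 rose and 1 fell (10.5%, against 3.49% of all probe sets). In the basement membrane Agrn rose by 0.39, 1 of 16 tested genes (6.25%). None of 7 fibrillar collagens, 14 elastic fibre genes or 15 matrix proteases and inhibitors passed limma's test. Of these 36, 5 had an unadjusted p under 0.05, against 19.8% of all tested probe sets, and Col3a1 stood at 0.23 (limma adjusted p = 0.341).

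Raph1, the lamellipodin that recruits actin regulators to the cell's leading edge, was also among the 12 largest falls. It had 1246, 1355 and 1711 at 6 months and 596.9, 763.4 and 814.9 at 15 months. The ages were far apart, and Raph1 had the smallest p of any named gene (-0.95 ± 0.11, limma adjusted p = 2.03e-06). Pls3, an actin-bundling plastin, fell by 0.96, Rapgef4, an exchange factor activated by cyclic AMP, by 1.05, and Dnm1l, the GTPase of mitochondrial fission, by 1.02, each without overlap. The brighter probe sets of Pls3 and Dnm1l stood at -0.18 (limma adjusted p = 0.367) and -0.49 (limma adjusted p = 0.2065).

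Acyp2, an acylphosphatase, had 297.9, 357.9 and 548 at 6 months and 84.34, 195.5 and 244.3 at 15 months (-1.20 ± 0.23, limma adjusted p = 0.00259). Paip1, a partner of the poly(A)-binding protein in translation, fell by 0.94. Its brighter probe set was level, at -0.02 (limma adjusted p = 0.962). Pmm2, an enzyme of protein glycosylation, and Cyp11a1, the first enzyme of steroid hormone synthesis, fell by 1.57 and 1.49. Both fell from dim signals, with medians of 177.7 and 277.8 at 6 months. With an offset of 64 before the log2 they stood at -0.95 and -0.94. The brighter probe set of Pmm2 fell by 0.39 (limma adjusted p = 0.0271).

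Contractile genes stood mostly above 0 with small differences. Of 18 smooth muscle markers 2 rose and 0 fell (11.1%, against 3.49% of all probe sets), and 16 of the 18 stood above 0 with a median of 0.23. Myh11, the smooth muscle myosin, had 39990 to 53260 at 6 months and 53730 to 72820 at 15 months (0.41 ± 0.12, limma adjusted p = 0.0417), and Tpm2, a tropomyosin, rose by 0.44 (limma adjusted p = 0.0378). Both lost the call with quantile normalization, and with the hybridisation signal as a covariate Myh11 stood at 0.03 and Tpm2 at 0.06. Of 26 ion channel and calcium genes 2 rose (7.69%, against 3.49% of all probe sets). These were Atp2b1, a plasma membrane calcium pump, by 0.36 and Stim1, the calcium store sensor, by 0.34. Stim1 lost the call under 10 of 14 alternatives and without 11 of the 12 single arrays, and its other tested probe sets stood at 0.29 and -0.81. Ptger3, a prostaglandin E receptor, fell by 0.71 (limma adjusted p = 0.0351). It was the only one of 21 nitric oxide and vasoactive genes to pass (4.76%, near the 3.49% of all probe sets). Gsn, which encodes the actin-severing gelsolin, rose by 0.38 ± 0.07 (limma adjusted p = 0.00188), 1 of 15 fibroblast and adventitia genes (6.67%, against 3.49% of all probe sets). With quantile normalization Gsn stood at 0.08 (limma adjusted p = 0.572).

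Immune and stress genes gave almost no calls. Nfkbia, the inhibitor of NF-kappaB, rose by 0.81 ± 0.22 (limma adjusted p = 0.0383), 1 of 12 inflammatory genes (8.33%, against 3.49% of all probe sets). Of these 12 genes 4 stood above 0, with a list median of -0.2. The lowest was Ptgs2, at -1.67 (limma adjusted p = 0.115). None of 15 macrophage, 19 interferon-stimulated, 8 MHC class II, 9 complement, 19 immediate early, 13 heat shock, 21 unfolded protein response, 16 cell cycle or 8 senescence genes passed limma's adjusted threshold. Of these 128 list entries 8 had an unadjusted p under 0.05, a smaller share than the 19.8% of all tested probe sets. Fos, an immediate early gene, had 6441 to 21410 at 6 months and 4227 to 10580 at 15 months (-1.05 ± 0.35, limma adjusted p = 0.0835). The summed signal of 16 macrophage markers was 33657 to 74482 at 6 and 23774 to 64849 at 15 months, and their median difference was -0.31.

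Ribosomal protein genes held calls in both directions. Of 38 tested 6 rose and 2 fell (21.1%, against 3.49% of all probe sets), with a median of 0.13. Rps29 had 44400 to 58860 at 6 months and 64500 to 75780 at 15 months (0.43, limma adjusted p = 0.0119), and Rpl18 rose by 0.29 (limma adjusted p = 0.00441). With quantile normalization 3 of the 38 were called, Rps29 stood at 0.04 (limma adjusted p = 0.648) and Rpl18 at 0.18 (limma adjusted p = 0.0588). Rpl24 fell by 0.37 (limma adjusted p = 0.00877) and Rpl14 by 0.33 (limma adjusted p = 0.0272). These are among the brightest probe sets, and the rises in general were bright: the median of mean log2 signal was 11.39 for the 287 rises, 10.25 for the 296 falls and 10.06 for all tested. In the proteasome 0 of 29 genes rose and 2 fell (6.9%, against 3.49% of all probe sets), Psmd14 by 0.47 and Psma1 by 0.34.

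Markers of other cells moved beside these results without passing. The blood marker Hbb had 14130, 27210 and 42420 at 6 months and 34830, 48270 and 68320 at 15 months (0.91, limma adjusted p = 0.0992), and Alas2, of haem synthesis in red cells, stood at 1.03. Of 7 tested mesothelial genes, markers of the lining of the abdominal cavity, 0 passed limma's adjusted threshold. Of the 7, 5 had an unadjusted p under 0.05, a larger share than the 19.8% of all tested probe sets. In BN 6 stood above 0 with a median of 0.72, against -0.59 in FBN. The mesothelial sum was 2239 to 3403 at 6 months and 2344 to 9054 at 15 months. The part of these cells in the results was not tested.

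Different probe sets of a gene did not always move together. Genes called higher had 141 other tested probe sets, of which 81 had the same sign and 60 the opposite one. For genes called lower these were 142, 96 and 46. Btrc, Ggnbp2 and Larp4b held called probe sets in both directions, so a call stands for its probe set rather than for all transcripts of its gene.

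How many probe sets passed depended strongly on which arrays and covariates entered the fit. With tissue mass as a covariate 57 rose and 67 fell, with the Gapdh ratio 110 and 147, with the hybridisation signal 152 and 212, and with the poly-A signal 189 and 253. Without 6-month arrays 1 and 5, which had the lowest spike-in signals and were left out after the data were seen, 45 rose and 48 fell. Leaving out single arrays gave 106 and 126 without 6-month array 5 and 134 and 144 without 15-month array 5. It gave 149 and 166 without 15-month array 1, 180 and 196 without 6-month array 2, 200 and 182 without 6-month array 6, and 179 and 205 without 15-month array 6. The other left-out arrays moved either count by less than 1.5 times.

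Of the 24 genes with the largest changes, 17 lost the call with mass as a covariate, 18 with the Gapdh ratio, 18 with the hybridisation signal and 21 without 6-month arrays 1 and 5. Without array 5 of 6 months alone 14 lost it, among them Bhlhe41 (-1.18, limma adjusted p = 0.0859), Nr1d2 (-1.23, limma adjusted p = 0.0821), Prodh (1.06, limma adjusted p = 0.103) and Chl1 (0.93, limma adjusted p = 0.0715). Without any one of the other 11 arrays 2 to 9 of the 24 lost it, the most without 15-month array 5. A further 29 genes, Rpl14 not among them, were named above as changed from the gene lists. Of these 8 lost the call with quantile normalization, 9 with array medians aligned, 22 with all 71 arrays in 1 fit, 26 with mass as a covariate, 23 with the Gapdh ratio, 21 with the hybridisation signal and 23 without 6-month arrays 1 and 5. The 8 were Gsn, Myh11, Pfkm, Pmp22, Rpl18, Rps29, Stim1 and Tpm2, and the 9 were Cpt1a, Dkk3, Fkbp10, Psma1, Psmd14, Ptger3, Stim1, Tgfb1 and Uqcrc1. Scd kept its call without any single array and under every alternative but the one without 6-month arrays 1 and 5 (2.58, limma adjusted p = 0.0755).

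**Figure D4:**
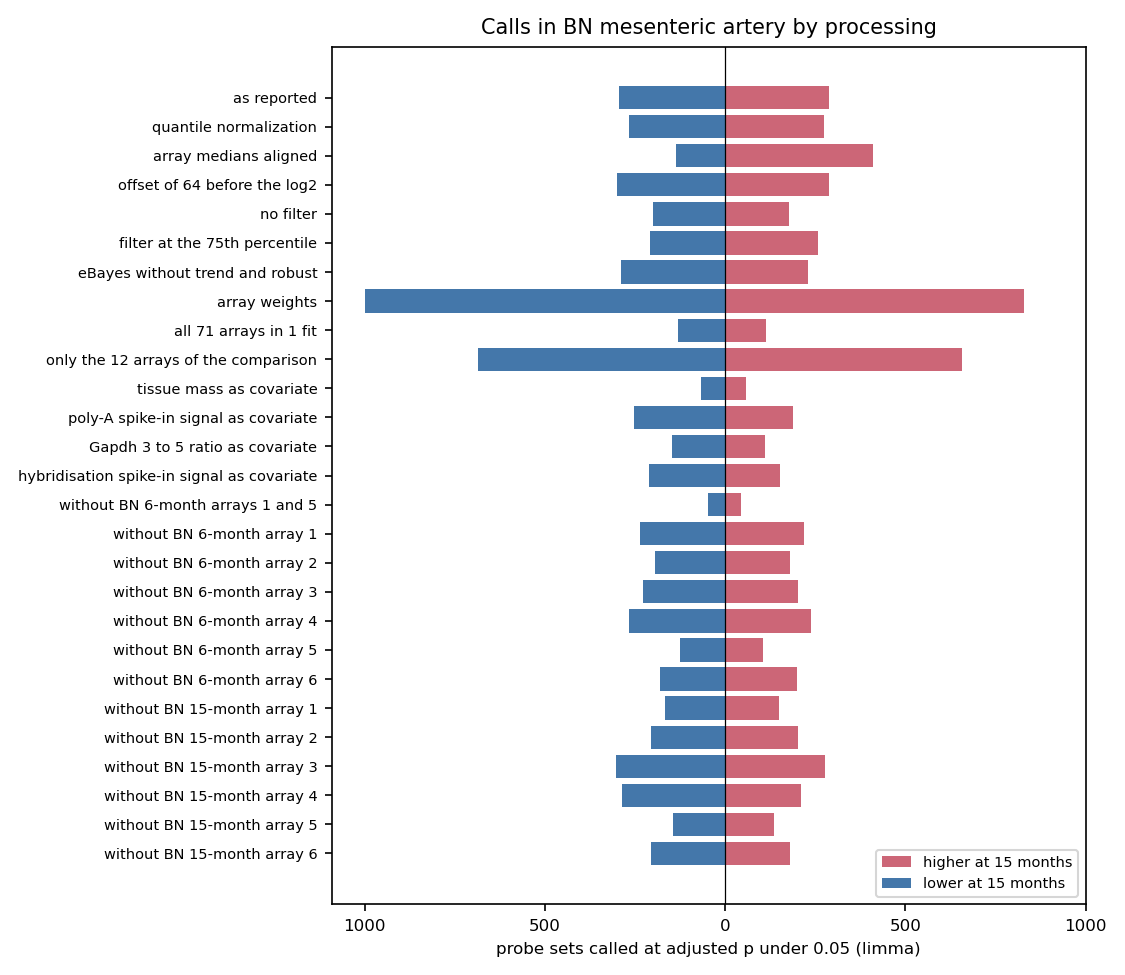
Number of probe sets called higher (right) and lower (left) at 15 months in BN mesenteric artery (x axis) as reported, under each alternative and with each array left out (y axis). Against 287 and 296 as reported, the counts range from 45 and 48 without 6-month arrays 1 and 5 to 830 and 1000 with array weights.

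A smaller set passed in every fit that was run. Each covariate entered alone and no fit combined them, so these fits do not separate age from the array measures and mass. In 35 probe sets, 17 higher and 18 lower, the call stood in the same direction under all 14 alternatives that tested them and with each of the 12 arrays left out. They were picked by their values and are given as a description, and their genes, apart from Slc44a1, Acyp2, Raph1 and Irf2bp2, are named after those values were seen. They named 26 genes. Of the 35, picked for passing every fit of these arrays, 34 did not overlap between ages, against 4.91% of all tested probe sets.

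Nutf2, which carries the GTPase Ran into the nucleus, had 1079, 1400 and 1541 at 6 months and a lowest and median signal of 2127 and 2398 at 15 months, a rise of 0.81 ± 0.11 (limma adjusted p = 4.55e-05) that was never under 0.74 in any setting. Map4k4, a kinase upstream of JNK, rose by 0.80, Nfe2l1, a transcription factor that maintains proteasome genes, by 0.73, and Irf2bp2, a transcriptional corepressor, by 0.67. The RNA-binding proteins Rbm22 and Rbm39 rose by 0.44 and 0.37.

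Among the falls Dbr1, which opens intron lariats, had 537.4 to 650 at 6 months and a median of 344.4 at 15 months (-0.77 ± 0.10, limma adjusted p = 4.27e-05). Cul4a, a scaffold of ubiquitin ligases, fell by 0.80, Yars2, the mitochondrial tyrosyl-tRNA synthetase, by 0.79, Sec24b, of the vesicle coat that leaves the endoplasmic reticulum, by 0.72, and Eif2a, an initiation factor, by 0.57. Fbl, the nucleolar methyltransferase fibrillarin, fell by 0.38. Raph1 was between -0.99 and -0.87 in every setting.

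Further tested probe sets of such genes seldom passed. The second probe set of Nutf2 stood at 0.01 (limma adjusted p = 0.966), that of Sec24b at -0.11 and that of Irf2bp2 at 0.23. Those of Map4k4 stood at 0.21 and 0.31 and those of Nfe2l1 at 0.10 and -0.19, and the brightest of Rbm39 at 0.12. None of these passed limma's test, so the changes are those of single probe sets. Larp4b, an RNA-binding protein, fell by 0.72 in its stable probe set and rose by 0.42 in the other (limma adjusted p = 0.0333), and both probe sets of Rprd2 fell, by 0.74 and 0.31. Dbr1, Cul4a, Yars2, Eif2a, Fbl, Raph1 and Acyp2 had 1 tested probe set each.

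The aorta is no independent reading of these 35 probe sets, since one of the alternatives they had to pass fitted all 71 arrays together. In BN aorta 33 of the 35 had the same sign, against 57.3% of all tested probe sets. Of the 35, 15 were called there in the same direction, while 1.61% of all tested were called there in either direction. Nutf2 stood at 0.78 there (limma adjusted p = 5.18e-06), Nfe2l1 at 0.69 (limma adjusted p = 4.98e-05), Pogz, a chromatin protein, at 0.61 (limma adjusted p = 0.000129), Cul4a at -0.79 (limma adjusted p = 0.00218) and Eif2a at -0.59 (limma adjusted p = 0.00549). The spike-in signals were also higher at 15 months in BN aorta, and their part in these values was not tested. In FBN mesenteric artery none of the 35 was called, with medians of 0.00 for the rises and -0.07 for the falls.

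The 583 calls came from mesenteric arrays alone, apart from the filter on level. Of the 287 rises 231, and of the 296 falls 237, had the same sign in BN aorta, where 57.3% of all tested probe sets did. The aorta medians were 0.19 and -0.25, 66 probe sets were called in both vessels in the same direction and 2 in opposite ones, and 269 were called in the aorta in all (1.61%). Across the 16717 probe sets, which are not independent, the log2 differences of the vessels correlated with r = 0.18. Fryl rose there by 0.73 (limma adjusted p = 0.0412) and Slc44a1 by 0.63 (limma adjusted p = 0.0175). Scd stood at 0.26, Prodh at -0.07, Bhlhe41 at 0.55 and Nr1d2 at 0.50 in BN aorta, none of them called.

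The change differed between the vessels in 13 probe sets (0.0778%; 7 positive, 0.0419%, and 6 negative, 0.0359%, by limma). Irf2bp2 rose in mesenteric artery and stood at -0.30 in aorta (difference 0.97, limma adjusted p = 0.045). Cpeb1, which controls polyadenylation of mRNAs, fell in mesenteric artery by 0.80 and rose in aorta by 1.05 (difference -1.84, limma adjusted p = 0.0102). Myh1, a skeletal muscle myosin, and Id4, an inhibitor of DNA-binding factors, stood at 0.36 and 0.16 in mesenteric artery and fell in aorta by 1.15 and 1.21. With an offset of 64 added before the log2, 0 and 1 of these differences passed, against 7 and 6 without it.

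**Figure D5:**
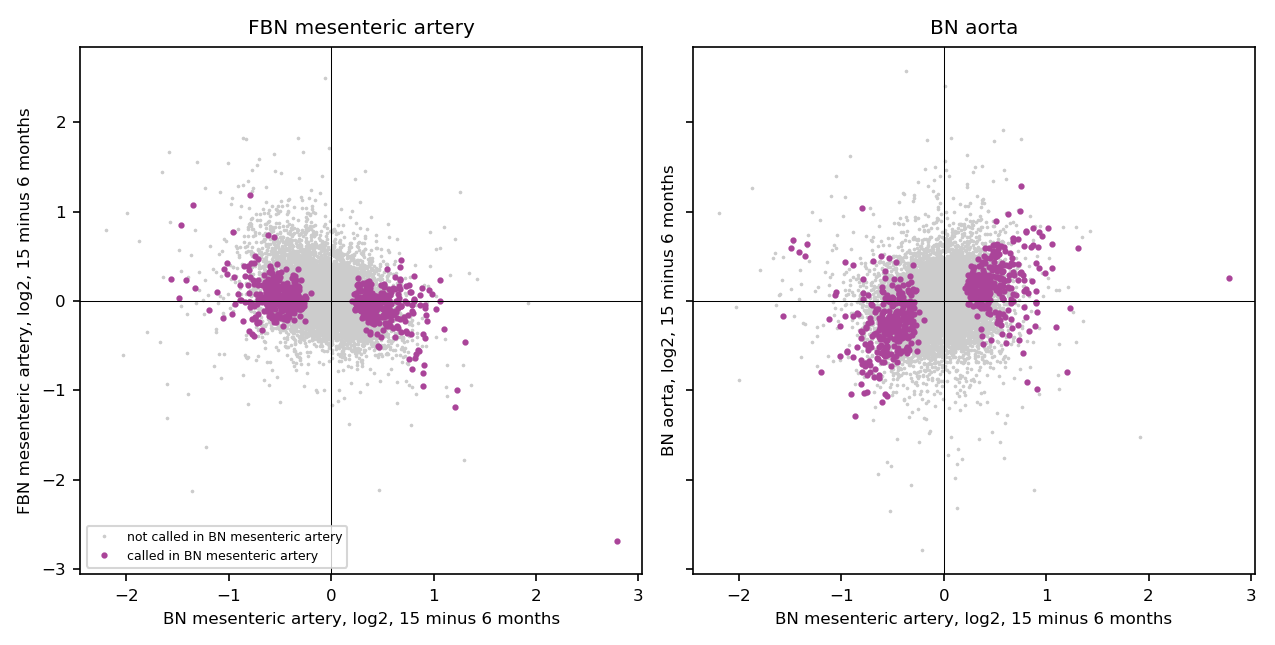
Log2 difference between 15 and 6 months in BN mesenteric artery (x axes) against that in FBN mesenteric artery (left) and in BN aorta (right; y axes), each point 1 of 16717 probe sets, with the 583 called in BN mesenteric artery in purple. In the aorta 468 of the 583 have the same sign, against 57.3% of all tested probe sets. In FBN mesenteric artery 346 have the opposite sign, about the 59.4% found over all tested probe sets.

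In FBN mesenteric artery almost no probe set passed the same test. There 2 rose (0.012%) and 0 fell, with 1876 at an unadjusted p under 0.05 by limma (11.2%). They were Erg, an endothelial transcription factor (0.84, limma adjusted p = 0.0441), and Cpeb1 (1.19, limma adjusted p = 0.0441). In BN Erg stood at -0.47 (limma adjusted p = 0.0806) and Cpeb1 fell. Over all probe sets the changes of the strains correlated with r = -0.31, with no array shared, and 59.4% had opposite signs. The 287 BN rises had an FBN median of -0.04 and the 296 falls one of 0.03.

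The change differed between the strains in 372 probe sets (2.23%; 173 more positive in BN, 1.03%, and 199 more negative, 1.19%, by limma). Scd led them. In FBN its mean signal was 4748 at 6 months and 976.4 at 15 months (-2.68, limma adjusted p = 0.0925), so that the difference of the changes was 5.47 ± 0.86 (limma adjusted p = 0.000827). Acaca (1.55 ± 0.23, limma adjusted p = 0.000689) and Fasn (1.55 ± 0.34, limma adjusted p = 0.0164) differed in the same direction. Prodh differed by 2.22, with FBN means of 3032 and 1490.

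For Raph1 the strains stood apart at the younger age. It had a mean of 1422 in BN at 6 months, of 639.1 in FBN at 6 months and of 737.9 and 764.2 at 15 months in BN and FBN. The 6-month BN arrays were the high group, and the changes differed by -1.22 ± 0.15 (limma adjusted p = 3.67e-05). Upk1b, a uroplakin also made by mesothelium, differed by 2.19 (limma adjusted p = 0.0261) while its BN rise of 1.13 did not pass (limma adjusted p = 0.0824). Irak1, a kinase of Toll-like receptor signalling, and Osbpl1a, an oxysterol-binding protein, differed by -2.55 and -2.51 from dim signals. With the Gapdh ratio as a covariate 6 and 9 probe sets differed between the strains, with the hybridisation signal 56 and 57, and without the BN 6-month arrays 1 and 5 30 and 26.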

How the data were processed

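Rat arterial RNA was hybridised to Affymetrix arrays. What the authors deposited is intensity, a linear MAS5 signal per probe set (31099 in all). Per the submitters' processing notes, GCOS and MAS5 produced it, with no version given. Each of the 12 arrays had been scaled to a trimmed mean of 1000.3. MAS5 corrects background within each array, so scaling and array quality pass into the values.

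The log2 of each signal was taken with no offset. After removal of 57 control probe sets, those with a mean log2 signal of at least 8.19 over the aorta or the mesenteric arrays were tested (16717). The mesenteric arrays (36, in 6 groups, 24-month arrays included as groups of their own) entered a linear model in limma 3.58.1 under R 4.3.3 (with statmod 1.5.0), using eBayes with trend and robust estimates. Comparisons with aorta used 12 groups over 71 arrays. P-values are two-sided with Benjamini-Hochberg adjustment at 0.05, and the script was tested on simulated data. The 6 array measures were tested by exact permutation over 924 splits, two-sided, with a smallest p of 0.00216. The number of arrays limits the precision. Probe sets were named through the platform annotation, and a list takes each gene by its brightest probe set. The comparison, the gene lists and the rules were chosen with earlier results of these data known. Genes named are the 12 largest rises and falls among called probe sets with 1 symbol, up to 4 members of each list with the smallest p, and 3 in each direction for the differences between strains and vessels. Clock genes beyond 4, Nr1d2's second probe set, Rpl14, Psma1, and cell type markers named for their level were chosen after their values were seen.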

Additional observations from a re-analysis of the deposited data

Results flagged for a closer look

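Single arrays stood far from the rest of their group in 11 of the 206 groups of 6 arrays examined among the named genes and array measures, where chance gives about 1 in 20. In BN mesenteric artery at 6 months these were array 5 for Chl1, the lowest of its group at a signal of 778.2, array 5 for Dnm1l, the highest at 460.4, array 5 for Nfe2l1, at 2125, array 2 for Ptger3, at 1933, and array 3 for Slc44a1, the highest at 2727. At 15 months they were array 6 for Slc44a1, the lowest at 3220, array 2 for Cyp11a1, the lowest at 16.26, array 6 for Adipoq, at 10820, array 5 for Map4k4, at 5915, array 2 for Prph, at 751.7, and array 4 for Sparc, the highest at 30350. Array 5 of 6 months also had the lowest spike-in signals and Gapdh ratio of its group.

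The change with age differed between BN and FBN mesenteric artery by limma's test of the difference (adjusted p under 0.05) for 45 of the 97 genes examined, against 2.23% of all tested probe sets. The 97 were chosen in large part by their change in BN, which is itself part of the tested difference. In log2 units the BN minus FBN difference was positive for 24. It was 5.47 for Scd, 2.22 for Prodh, 2.19 for Upk1b, 1.85 for Meg3, 1.76 for Wfdc21, 1.71 for Nrn1, 1.55 for Acaca and for Fasn, 1.42 for Aldoc, 1.41 for Chl1, 1.40 for Ncam1 and 1.10 for Prph. It was below 1 for Slc44a1 (0.92), Map4k4 (0.81), Nutf2 (0.78), Pfkm (0.72), Pogz (0.70), Pmp22 (0.68), Stim1 (0.66), Rbm22 (0.56), Agrn (0.51), Uqcrc1 (0.48), Ldha (0.46) and Gsn (0.42). The difference was negative for 21. It was -2.55 for Irak1, -2.51 for Osbpl1a, -2.43 for Nr1d2, -2.32 for Spp1, -1.98 for Cpeb1, -1.81 for Pmm2, -1.73 for Pls3, -1.44 for Dnm1l, -1.41 for Rapgef4, -1.31 for Erg and -1.22 for Raph1. Smaller ones were those of Dkk3 (-0.95), Acaa2 and Tgfb1 (-0.82 each), Yars2 (-0.79), Dbr1 (-0.74), Rpl14 (-0.68), Rpl24 and Psmd14 (-0.66 each), Fbl (-0.63) and Eif2a (-0.60). With the Gapdh ratio as a covariate Prodh, Upk1b, Irak1, Osbpl1a and Nr1d2 lost the call of a strain difference, and Scd kept it.

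The change differed between mesenteric artery and aorta of BN by 1.51 for Myh1, 1.38 for Id4, 0.97 for Irf2bp2, -1.84 for Cpeb1, -1.17 for Gnai1 and -0.90 for C8h11orf52.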

How the results depend on the processing

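Of the 583 called probe sets 2 changed direction under an alternative. For the differences between strains and between vessels, direction was followed for 6 named genes each, and none turned. Aligning array medians turned the balance of calls, for the BN change and for the strain difference. Counts are given as higher and lower, 287 and 296 as reported. For BN mesenteric artery, array medians aligned gave 411 and 137, no filter 178 and 199, array weights 830 and 1000, all 71 arrays in 1 fit 113 and 130, only the 12 arrays 658 and 686, tissue mass 57 and 67, the poly-A signal 189 and 253, the Gapdh ratio 110 and 147, the hybridisation signal 152 and 212, and leaving out 6-month arrays 1 and 5, added after the data were seen, 45 and 48. Quantile normalization, an offset of 64, the 75th percentile filter and eBayes without trend stayed within 1.5 times. Leaving out 1 array gave 106 to 278 and 126 to 302. In FBN, with 2 and 0, quantile normalization gave 5 and 1, aligned medians 2 and 3, the offset 3 and 1, no filter and eBayes without trend 0, the 75th percentile filter 8 and 3, array weights 5 and 3, all arrays 13 and 1, mass and only the 12 arrays 0, the poly-A signal 11 and 7, the Gapdh ratio 5 and 2, the hybridisation signal 56 and 36, and 1 array left out 0 to 29 and 0 to 6. For the strain difference, with 173 and 199, aligned medians gave 357 and 127, no filter 91 and 104, all arrays 39 and 98, the poly-A signal 79 and 76, the Gapdh ratio 6 and 9, the hybridisation signal 56 and 57, arrays 1 and 5 left out 30 and 26, and 1 array left out 68 to 434 and 58 to 515. For the vessel difference, with 7 and 6, quantile normalization gave 14 and 8, aligned medians 2 and 2, the offset 0 and 1, no filter 6 and 2, the 75th percentile filter 5 and 3, array weights 99 and 86, mass 12 and 6, the poly-A signal 11 and 8, the hybridisation signal 11 and 5, arrays 1 and 5 left out 0 and 2, and 1 array left out 0 to 9 and 2 to 5. The poly-A difference was 0.0694 for Trp alone. The causes were not tested. Sizes of dim genes depend on the offset: Pmm2 stood at -0.95 with an offset of 64. The labels do not identify the animal of an array. Mesenteric artery and aorta of the same rat, if any, could therefore not be paired in the vessel comparison.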
